A study of Mus musculus with 6 samples.

Results

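The 294 ribosomal protein pseudogenes described here are the genes of a pseudogene biotype in GENCODE release M21 of mouse build GRCm38 whose symbol starts with Rpl (large ribosomal subunit) or Rps (small subunit) and contains -ps. Of 300 genes with such a symbol among the 55487 genes of the deposited tables, 6 are annotated as protein coding and were left out. Ribosomal protein pseudogenes are genomic copies of the messenger RNAs of ribosomal proteins. Most arose when a spliced messenger RNA was copied back into DNA and inserted elsewhere in the genome, so they lack introns and usually a promoter of their own, and such copies are called processed pseudogenes. Genes for ribosomal proteins are among the most strongly transcribed in growing cells and have left many such copies in mammalian genomes. A young copy can be nearly or fully identical to the coding sequence of its parent gene, and a short sequencing read from such a stretch fits parent and copy equally well.

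RNA was measured by sequencing in 6 libraries of untreated mouse embryonic fibroblasts, connective-tissue cells taken into culture from embryos. There were 3 knockout (KO) libraries, 1 each at passages 2, 3 and 4, and 3 wild-type (WT) libraries at the same passages, where a passage is 1 round of detaching and replating. The labels name neither the deleted gene, nor the strain, nor how many embryos or cultures were used, so the targeted gene could not be checked. Groups follow the titles, since the separate genotype tag gives WT for 2 libraries titled KO. The libraries of a genotype may all derive from 1 culture, and then p-values measure only the spread between these libraries.

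At passages 2, 3 and 4 the KO libraries totalled 27361852, 67760880 and 30473493 expected counts, and the WT libraries 42335628, 41933793 and 24853121. Expected counts are the read numbers that the program RSEM assigns to a gene after dividing ambiguous reads among the genes they fit, and they need not be whole. All 6 fibroblast markers had 10 or more counts in every library, and 3 of them were called lower in KO. All 5 macrophage markers fell with passage, and their summed level at passages 2, 3 and 4 was 67.3, 23.7 and 12.4 CPM in KO and 114, 50.3 and 17.1 CPM in WT (CPM, the count scaled by TMM to a common library size). Hba-a1 and Hbb-bs, which define red blood cells, were at 0 in every library. Xist, which is transcribed from the inactive X chromosome, was at 417 to 567 CPM in KO and at 0.12 to 0.30 CPM in WT, and 4 Y-linked genes summed to between 0 and 1.40 CPM in KO and between 168 and 188 CPM in WT. Genotype and sex cannot be told apart in these libraries. In bulk RNA, fewer cells of a type and less RNA per cell cannot be told apart either. The part of these differences in the pseudogene values below was not tested.

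The 294 members comprised 287 processed pseudogenes and 7 transcribed processed pseudogenes, a class for copies with evidence of transcription in the annotation. They belong to 62 families, named by the symbol before -ps, and the largest family, Rpl31, has 24 members. Members lie on 20 chromosomes, with the most, 35, on chromosome X. By annotation 202 lie between genes, 26 in an intron of another gene on the same strand, 55 in an intron on the opposite strand, and 11 overlap an exon of another gene.

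A pair of copies of Rpl15 carries the largest genotype differences, and the sequences of both differ little from that of their parent. Rpl15, on chromosome 14 at chr14:18267823-18271391 on the minus strand, encodes a protein of the large subunit. Rpl15-ps2 (ENSMUSG00000098915, chr9:72060937-72061549, plus strand) lies in an intron of Tcf12 on the opposite strand, and Rpl15-ps3 (ENSMUSG00000061167, chr9:22185607-22186221, minus strand) lies between genes. Rpl15-ps3 is 615 bases long, starts with ATG, holds 204 codons before its stop codon and is contained letter for letter in 4 of the 6 annotated Rpl15 transcripts. Rpl15-ps2 is 613 bases long and aligned to Rpl15 with 8 mismatches and no gap. Counted from 1 at the 5′ end of Rpl15-ps2, with the base of Rpl15 first, the differences are G13A, T79C, C102T, A154G, C320T, G321A, C352G and G603A. They are the same 8 against Rpl15-ps3. The 2 stretches below hold 7 of them, with the differing bases in capitals and each sequence read 5′ to 3′ on the strand of its gene from the GENCODE M21 transcripts. Bases 1 to 160 of Rpl15-ps2 (chr9:72060937-72061096) are set against bases 3 to 162 of Rpl15-ps3 (chr9:22186060-22186219), and bases 301 to 360 of Rpl15-ps2 (chr9:72061237-72061296) against bases 303 to 362 of Rpl15-ps3 (chr9:22185860-22185919).
Rpl15-ps2, bases 1 to 160: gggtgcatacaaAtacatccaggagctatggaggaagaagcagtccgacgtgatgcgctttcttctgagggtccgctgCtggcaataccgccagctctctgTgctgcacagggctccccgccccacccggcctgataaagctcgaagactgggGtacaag
Rpl15-ps3, bases 3 to 162: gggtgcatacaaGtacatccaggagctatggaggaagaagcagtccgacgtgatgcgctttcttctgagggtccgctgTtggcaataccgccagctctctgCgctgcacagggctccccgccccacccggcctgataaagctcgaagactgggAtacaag
Rpl15-ps2, bases 301 to 360: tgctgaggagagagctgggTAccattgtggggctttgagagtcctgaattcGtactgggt
Rpl15-ps3, bases 303 to 362: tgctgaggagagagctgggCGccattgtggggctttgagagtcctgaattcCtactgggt

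Rpl26-ps6 (chr9:43217122-43217555, plus strand, between genes) is shown as a copy that shares no 64-base stretch with a transcript of another gene, with 42 mismatches to Rpl26, a large subunit gene at chr11:68901583-68906989. Its first 60 bases (chr9:43217122-43217181) are shown against bases 48 to 107 of the Rpl26 transcript, with the 5 differing bases in capitals.
Rpl26-ps6, bases 1 to 60: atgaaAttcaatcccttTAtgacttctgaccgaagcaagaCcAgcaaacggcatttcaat
Rpl26, transcript bases 48 to 107: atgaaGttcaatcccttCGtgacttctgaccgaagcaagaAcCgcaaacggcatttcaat

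How much of each member is its own was measured as the percentage of its 64-base words found again, on either strand, in a transcript of some other gene. Members at 25% or more are said to share sequence. For 32 members every word was shared, 119 shared from 25% to under 100%, and 143 shared under 25%, of which 69 shared no word. In Rpl15-ps2, 79.8% of the words were shared, in Rpl15-ps3 100% and in Rpl26-ps6 0%. With 98-base words, a length chosen after the data were seen and close to the difference between the deposited lengths and effective lengths, 30 members had no word of their own, Rpl15-ps3 among them, and Rpl15-ps2 had 283 of its own.

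Most members had few or no counts. Listed at 0 in all 6 libraries were 102 members, 60 had 10 or more counts in some library, 22 had 10 or more in every library and 15 had 100 or more in every library. The 22 are 7.48% of the members, against 3.16% of the 13225 other pseudogenes of the tables. Counts lay in a few copies, since the 5 highest members held from 72.3% to 79.0% of the members' counts in a library. The members summed to 2207, 1824 and 1569 CPM in KO at passages 2, 3 and 4, and to 1789, 2173 and 2127 CPM in WT. KO averaged 1867 ± 321 CPM and WT 2029 ± 210 CPM (SD, n = 3 each), and the ranges of the genotypes overlapped.

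Members that share sequence held nearly all of these counts. Per library, the 32 members with every word shared held 46.2% to 57.2% of the members' counts and the 119 with 25% to under 100% shared held 42.7% to 53.6%. The 143 with under 25% shared held 0.141% to 0.212%, which summed to 3.73, 3.09 and 3.32 CPM in KO and to 3.25, 3.42 and 3.0 CPM in WT. Between 82.0% and 88.0% of the members' values above 0 in a library were not whole numbers, against 28.7% to 32.4% of the values above 0 of all genes. Sharing alone did not go with a high count. Of the 32 fully shared members 11 were at 0 in every library, and the 20 of them that are not identical to their parent gene over their whole length had a highest mean of 0.65 CPM.

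**Figure D1:**
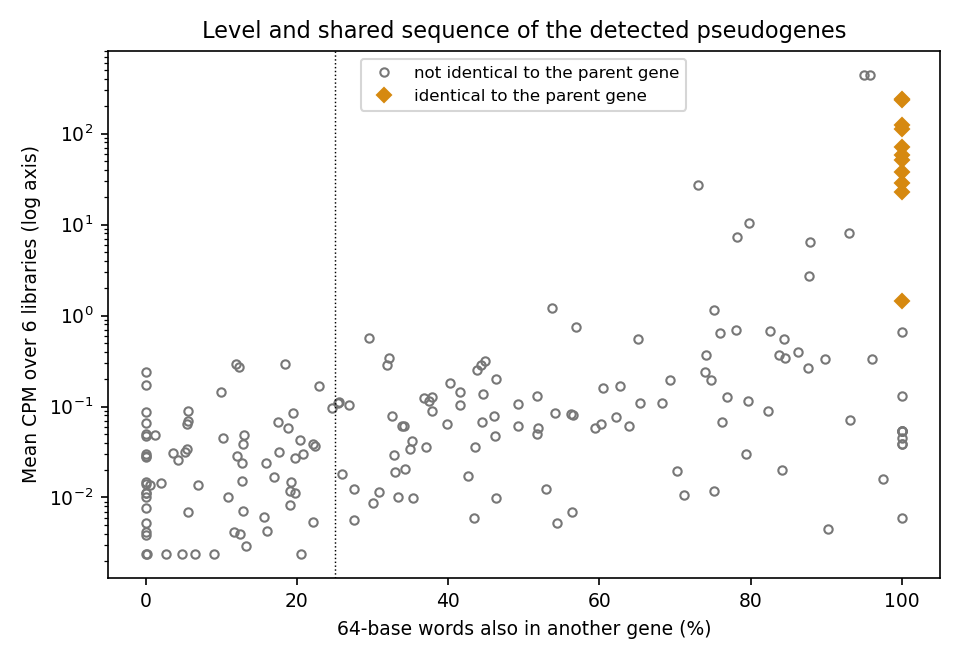
Each point is 1 of the 192 pseudogenes with a count above 0, placed by the percentage of its 64-base words also found in another gene (x axis) and its mean CPM over the 6 libraries (y axis, log scale). The filled diamonds, copies identical to the parent gene over their full length, stand at 100% shared words, and the dotted line marks 25%.

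Levels were lower in copies that had diverged more from the parent gene. A local alignment was 100% identical over the aligned bases for 16 members, of which 11 had 10 or more counts in every library, with a median of 33.1 CPM. Between 99% and under 100% identity there were 43 members, with a median of 0.14 CPM and 8 with 10 or more counts in every library. From 98% to under 99% the median over 40 members was 0.081 CPM, and from 95% to under 98% it was 0.014 CPM over 68 members. Below 95% there were 125 members, 75 of them at 0 in every library, and none had 10 or more counts in every library. These medians are over the mean of each member across the 6 libraries and are given as a description, without a test.

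Of the 12 members identical to their parent gene over their full length, 11 had 10 or more counts in every library. Levels between genes are compared here in TPM, which the authors' RSEM run scaled by transcript length. Rpl28-ps1 averaged 1243 TPM, against 959 TPM for its parent Rpl28, a large subunit gene. Rps23-ps1 averaged 1230 TPM, against 705 TPM for Rps23, whose protein sits at the decoding centre of the small subunit. Rpl36a-ps2 and Rpl27-ps3 also stood above their parents, at 541 TPM against 265 TPM for Rpl36a and at 316 TPM against 150 TPM for Rpl27. The other 7 were below, among them Rps6-ps4 at 295 TPM against 1244 TPM for Rps6, whose protein is phosphorylated by S6 kinase downstream of mTORC1, and Rpl38-ps2 at 21.3 TPM against 910 TPM for Rpl38. Rpl10-ps1 (chr2:105554201-105554845, minus strand) was the exception. It is identical to Rpl10 over 645 bases, and it was listed at 0 in all 6 libraries while Rpl10 averaged 1040 TPM. No 64-base word of these 12 copies is found in 1 gene only, so their expected counts rest on how RSEM divided shared reads, and transcription of the copy cannot be told apart from transcription of the parent.

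**Figure D2:**
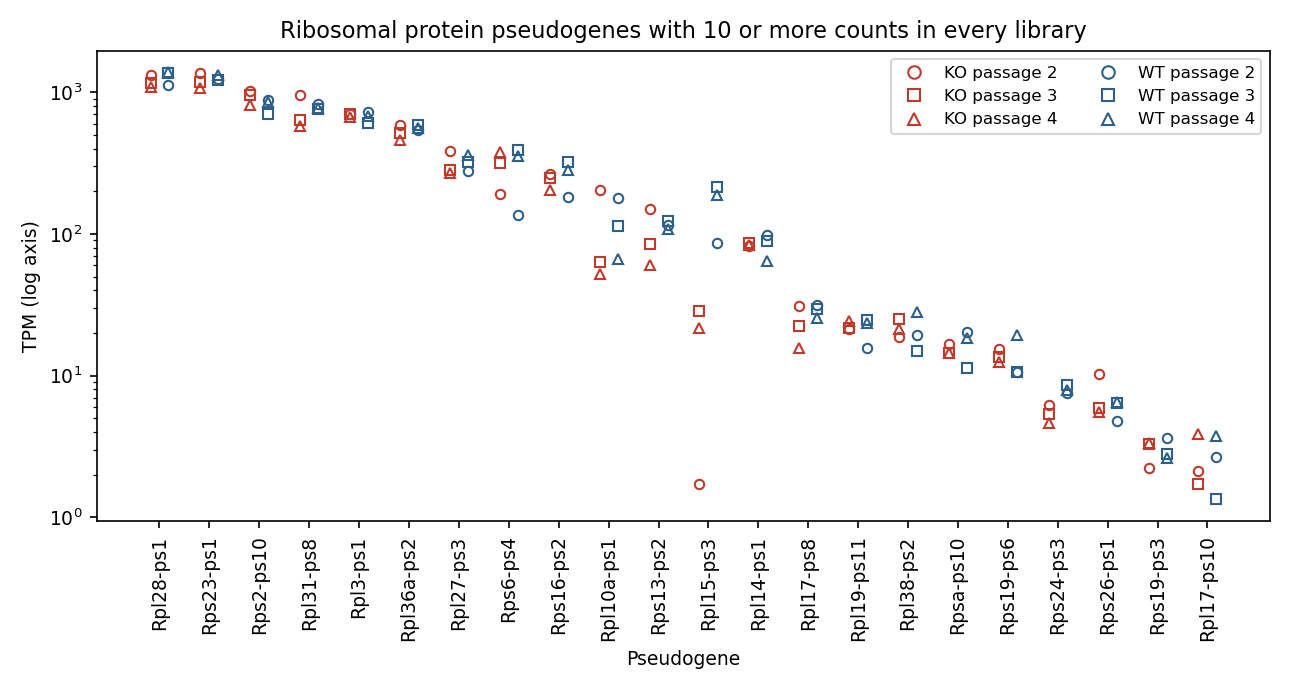
TPM (log axis) of the 22 pseudogenes with 10 or more counts in every library, with KO libraries in red to the left of WT libraries in blue and a symbol for each passage. Rpl28-ps1 and Rps23-ps1 stand highest on average, and Rpl15-ps3 has the widest range, from 1.73 TPM in KO at passage 2 to 213 TPM in WT at passage 3.

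High counts were also found in copies with a few differences from their parent. Rpl3-ps1 (chrX:13202571-13203780, plus strand) has 2 mismatches over 1210 bases to Rpl3, whose protein lies near the peptidyl transferase centre, and had 705, 702 and 666 TPM in KO at passages 2, 3 and 4, and 722, 603 and 684 TPM in WT. Rps2-ps10, a transcribed processed pseudogene with 5 mismatches to Rps2, had 1018, 953 and 810 TPM in KO and 876, 698 and 849 TPM in WT. Values of the genotypes overlapped for both copies. Of their words 94.9% and 95.8% were shared, and 58 and 62 of their 98-base words were their own. The other 6 transcribed processed pseudogenes were lower. Rps26-ps1 had 24.6 to 61.3 counts per library, Rps2-ps9 had 8.12 to 14.1, and the other 4 were at 0 in at least 1 library.

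Among the 22 members with 10 or more counts in every library, the 5 with the least shared sequence were Rps19-ps3 (29.5% of words shared), Rps24-ps3 (53.7%), Rpl14-ps1 (73.1%), Rps26-ps1 (75.1%) and Rpsa-ps10 (78.2%). Rpl14-ps1, a copy of the large subunit gene Rpl14 in an intron of Trpm4 on the opposite strand, had the highest level of the 5, with 82.7, 86.9 and 83.5 TPM in KO and 97.9, 89.9 and 64.3 TPM in WT. Rps19-ps3, with 14 mismatches to Rps19, had 12.4, 42.3 and 18.1 counts in KO and 28.1, 24.4 and 12.9 counts in WT. For Rps24-ps3, on chromosome X, there were 1.15, 0.91 and 0.74 CPM in KO and 1.27, 1.75 and 1.49 CPM in WT. Every KO value of Rps24-ps3 was below every WT value, but the change was not called (log2 change −0.70 ± 0.29 SE, edgeR adjusted p = 0.223). The other 4 copies overlapped between genotypes. The share of all genes whose values separate like those of Rps24-ps3 is not given here.

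Copies with no shared word were near the limit of detection. The highest of the 69, Rpl26-ps6, had 4, 16 and 13 counts in KO and 11, 9 and 4 counts in WT, all whole numbers. Next was Rpl9-ps8, with 4, 16 and 4 counts in KO and 2, 11 and 5 counts in WT. Both were detected in every library, and neither passed the filter on low counts. Among the 69, 50 were at 0 in all 6 libraries, and for these the true count per library may be as high as 3.

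The genotype comparison asked which copies differ between KO and WT fibroblasts. A filter on low counts left 16603 genes of the whole table and 42 members, and changes were tested with edgeR's quasi-likelihood test with Benjamini-Hochberg adjustment over all genes. Since a copy passes such a filter through its own counts, the 42 are not a sample of the 294. Across all genes 2.48% were called at an adjusted p under 0.05, with 0.934% higher and 1.55% lower in KO. With passage as a block the same test called 11.1% of all genes, 778 higher and 1057 lower in KO, and DESeq2 called 1661 of the 16603 (10%). Of the 42 members 1 was called without the block, Rpl15-ps2, and it was higher in KO. The median log2 change was −0.13 over the 42 members, −0.11 over the 84 cytosolic ribosomal protein genes tested, and −0.01 over all genes. Leaving out 1 library moved the members' median between −0.28 without KO at passage 2 and −0.03 without WT at passage 4, and that of the ribosomal protein genes between −0.31 without KO at passage 2 and 0.003 without KO at passage 4. Of the 84, edgeR called 0, and both DESeq2 and the fit with the block called 2. At an unadjusted p under 0.05 in edgeR without the block there were 2 of the 84, 3 of the 42 members and 21.3% of all genes.

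Rpl15-ps2 had 596, 1541 and 572 counts in KO at passages 2, 3 and 4, against 2.87, 12.4 and 2.74 counts in WT. On the CPM scale it stood at 21.5, 22.1 and 18.2 in KO and at 0.068, 0.31 and 0.11 in WT. All 3 KO libraries were far above all 3 WT libraries, and the KO values were close to each other. The log2 change was 6.91 ± 0.37 SE (edgeR adjusted p = 0.000665). Over the pooled libraries the ratio of KO to WT per total count was 131, with an exact 95% interval of 82.5 to 221 that covers counting error only, since the WT libraries together held 18 counts. Its slope with passage was not called (slope −0.06 ± 0.17 SE per passage, edgeR adjusted p = 0.877).

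Rpl15-ps3 went the other way without passing the threshold. It had 15.3, 571 and 184 counts in KO, against 1040, 2932 and 1446 counts in WT, or 0.55, 8.19 and 5.85 CPM in KO and 24.6, 73.4 and 59.9 CPM in WT. Every KO value was below every WT value, and the KO library at passage 2 was more than 10 times lower than the other KO libraries. The share of all genes whose values separate in this way is not given here. The log2 change of Rpl15-ps3 was −3.39 ± 0.80 SE (edgeR adjusted p = 0.0798). With passage as a block the change was −3.67 ± 0.40 SE and was called (edgeR adjusted p = 0.0108), so that 2 of the 42 members (4.76%) were called, against 11.1% of all genes in that fit. Rpl15-ps3 has no word of its own, so its level is set by the division of reads between it, Rpl15 and the other copies.

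The parent gene did not show these differences. Rpl15 stood at 534, 416 and 370 CPM in KO and at 422, 475 and 491 CPM in WT, with overlapping values and a log2 change of −0.07 ± 0.15 SE (edgeR adjusted p = 0.829). When the counts of all 5 Rpl15 copies were added to Rpl15 and the table was refitted, the family stood at 466 ± 82.5 CPM in KO and 516 ± 59.4 CPM in WT (SD, n = 3 each), with a log2 change of −0.14 ± 0.16 SE (edgeR adjusted p = 0.658). The copies made up 3.97%, 6.80% and 6.11% of the family's counts in KO and 5.53%, 13.5% and 10.9% in WT. Rpl15-ps1 was at 0 in every library, and Rpl15-ps4 and Rpl15-ps5 did not exceed 5.80 counts in any. No gene tested within 1 Mb of Rpl15-ps2 (33 genes) or of Rpl15-ps3 (45 genes) was called between genotypes by edgeR. At an unadjusted p under 0.05 there were 6 and 10 of them, beside 21.3% of all genes. DESeq2, which called 10% of all genes, called 4 near each copy. Whether the reads counted to Rpl15-ps2 hold its 8 differing bases was not analysed here, since the deposited files hold no reads.

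**Figure D3:**
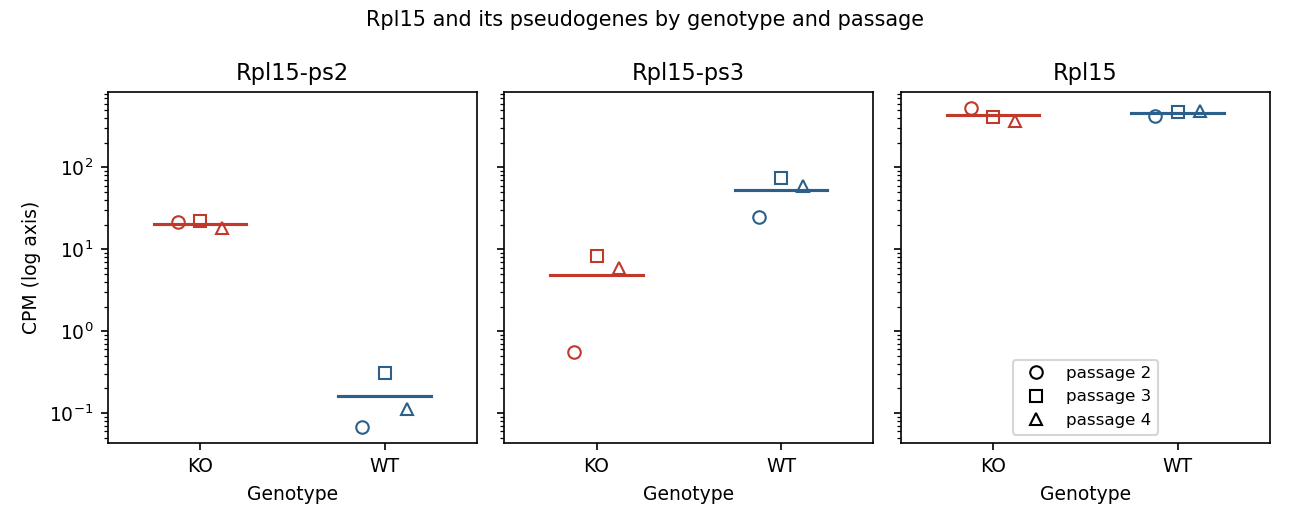
CPM (log axis) of Rpl15-ps2, Rpl15-ps3 and their parent Rpl15 by genotype, KO left of WT, with a symbol for each passage and a line at the mean. Rpl15-ps2 is at 18.2 to 22.1 CPM in KO and at 0.068 to 0.31 CPM in WT, Rpl15-ps3 is lower in KO, and Rpl15 overlaps between genotypes.

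The other 40 tested members had log2 changes between −1.39 and 1.54, and the lowest edgeR adjusted p among them was 0.223. The largest of these were in copies with few counts. Rps2-ps6 had 19.4, 19.7 and 16.6 counts in KO and 10.5, 0 and 7.41 counts in WT (log2 change 1.54 ± 0.85 SE). Rps27a-ps2, a copy of the gene that encodes ubiquitin fused to a small subunit protein, had 21.2, 30.9 and 7.67 counts in KO and 0, 13.7 and 4.56 counts in WT (log2 change 1.38 ± 0.90 SE). In the other direction, Rpl17-ps5 had 0, 28.1 and 21.4 counts in KO and 25.9, 70.7 and 11.0 counts in WT (log2 change −1.39 ± 0.92 SE), and Rpl17-ps3 had 11.9, 60.2 and 0.01 counts in KO and 22.5, 34.2 and 36.9 counts in WT. On the CPM scale the values of the genotypes overlapped for each of these 4 copies. Rpl10-ps6, Rps15a-ps6, Rpl23a-ps3 and Rps10-ps2 had log2 changes of −1.03, −0.80, −0.71 and 0.75, and none was called. For the 10 copies with the highest mean TPM the changes lay between −0.27 for Rps16-ps2 and 0.10 for Rps2-ps10, and no genotype difference among them was called. On chromosome X, 4 members were tested, and none was called.

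**Figure D4:**
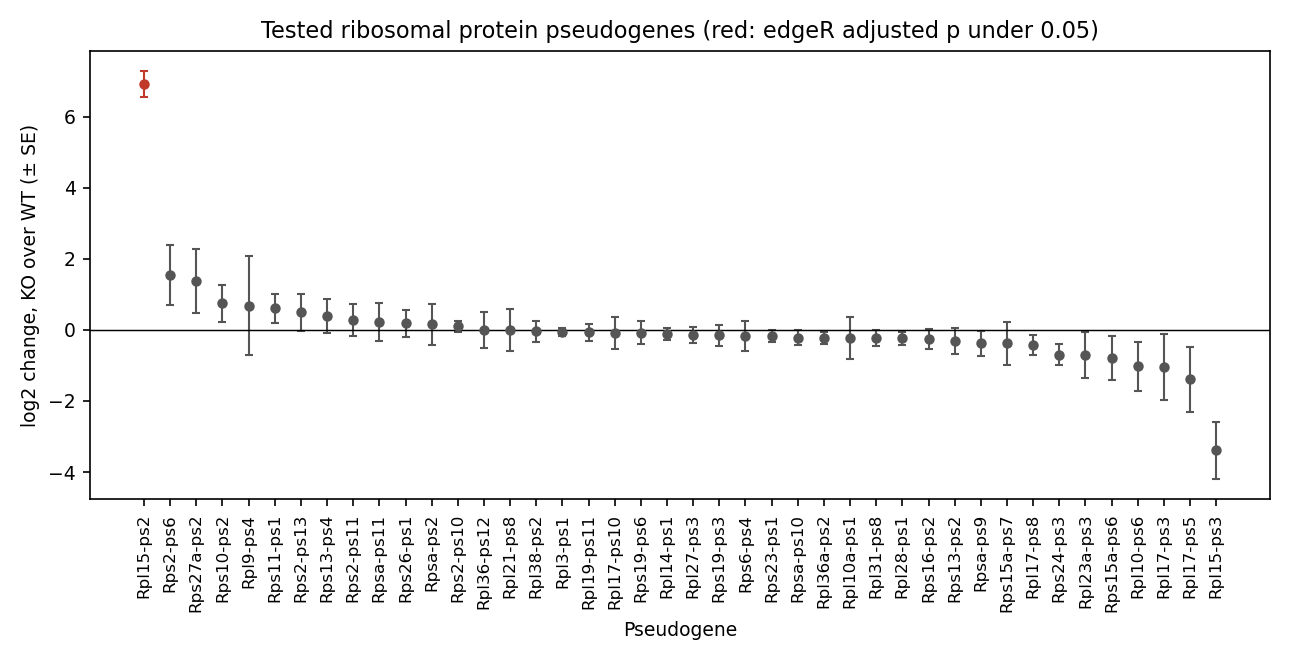
Log2 change of KO over WT (y axis, with SE bars from edgeR) for each of the 42 tested pseudogenes, ordered from highest to lowest. Rpl15-ps2, in red, is the copy called at an adjusted p under 0.05, with a change of 6.91, and Rpl15-ps3 is lowest at −3.39.

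Copies seen in 1 genotype only were defined as having counts that sum to 10 or more over the 3 libraries of a genotype and stay under 0.5 in each library of the other. Of the 22409 genes of the table with 10 or more counts in all, 119 (0.531%) met this rule, 89 (0.397%) in KO and 30 (0.134%) in WT. Of the 110 members with 10 or more counts in all, 1 did, Rps12-ps4 (ENSMUSG00000109509, chr7:30484701-30485097, minus strand), which overlaps an exon of Nphs1 on the opposite strand. Rps12-ps4 was at 0 in all 3 KO libraries and had 9.04, 8.6 and 0 counts in WT at passages 2, 3 and 4. It was thus also undetected in 1 WT library. In 93.1% its words are shared with another gene, and its parent Rps12, a small subunit gene, had 7956 to 19441 counts per library. Rpl15-ps2 is not such a copy, since its WT libraries held counts above 0.5.

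At least 1 count in a KO library and under 1 in every WT library was found for 20 members, and the reverse for 21. These are 10.6% and 11.1% of the 189 members with 1 or more counts in some library, against 9.22% and 6.81% of the 31458 such genes of the whole table. There were counts of 1 or more in both genotypes for 148, of which 61 had them in all 6 libraries, and 105 stayed under 1 count everywhere. None was seen in all 3 KO libraries and no WT library, and the highest summed count of a copy seen in KO only was 4.91, for Rpl36a-ps3. Seen in all 3 WT libraries and no KO library were Rpl31-ps24, with 1, 3 and 2 counts, and Rpsa-ps5, with 3.52, 4.02 and 1.22 counts. The share of all genes that meet this stricter rule is not given here, so no excess can be read from these copies. Rpl31-ps24 shares no word with another gene and lies at chr1:64934402-64934780 in an intron of Plekhm3 on the opposite strand. Counts this low are at or near the 3 counts that a library at 0 allows, and a difference between genotypes was not detectable for them at this depth. These 3 copies were named after their values were seen.

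The passage comparison tested the slope per passage with genotype in the model. Across all genes 6.25% were called, 2.78% that rose and 3.48% that fell, and of the 42 members 1 was called, Rpl10a-ps1, a copy identical to Rpl10a over 654 bases at chr1:64993951-64994604 (minus strand, between genes). Rpl10a encodes a protein of the stalk at the exit site of the large subunit. Rpl10a-ps1 stood at 69.1, 19.6 and 15.2 CPM in KO at passages 2, 3 and 4, and at 55.4, 42.4 and 23.0 CPM in WT. It fell at each step in both genotypes, by 0.89 ± 0.16 SE on the log2 scale per passage (edgeR adjusted p = 0.0254). The call was lost when any of 3 libraries was left out, with an adjusted p of 0.131 without KO at passage 4, 0.0629 without WT at passage 3 and 0.0988 without WT at passage 4, while the slopes were −0.88, −0.88 and −0.97. Without KO at passage 2 the slope was −0.58 and was still called (edgeR adjusted p = 0.0408). Its parent Rpl10a stood at 334, 313 and 275 CPM in KO and at 279, 334 and 361 CPM in WT, with a slope of 0.02 ± 0.08 SE (edgeR adjusted p = 0.910). With the copies added, the Rpl10a family had a slope of −0.07 ± 0.08 SE (edgeR adjusted p = 0.706). The copies' share of the family's counts was 17.1%, 5.91% and 5.23% in KO and 16.6%, 11.2% and 5.98% in WT.

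Rps6-ps4 had the opposite pattern, which was not called. It stood at 77.0, 115 and 128 CPM in KO and at 49.4, 169 and 143 CPM in WT (slope 0.54 ± 0.20 SE, edgeR adjusted p = 0.195), and the copies' share of the Rps6 family was 10.5%, 16.5% and 21.5% in KO and 7.91%, 24.1% and 19.7% in WT. Both genotypes had their lowest value at passage 2. Of the 84 ribosomal protein genes, 1 was called with passage, Rpl22l1, which fell.

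Copies with many counts were mostly lower at passage 4 than at passage 2 in KO and mostly higher in WT. Of the 15 members with 100 or more counts in every library, 14 were lower and 1 higher in KO, with a median log2 change from passage 2 to passage 4 of −0.58, and 3 were lower and 12 higher in WT, with a median of 0.11. Rps13-ps2 had the largest gap between the genotypes, with −1.54 in KO and 0.07 in WT. The parents of the 15 copies were all lower in KO, and in WT 12 were higher and 3 lower. A copy and its parent went opposite ways in KO for Rps6-ps4 and in WT for Rpl10a-ps1, Rpl14-ps1, Rpl17-ps8, Rpl3-ps1, Rpl36a-ps2 and Rps2-ps10. Among 83 ribosomal protein genes with such counts, 82 were lower in KO, with a median of −0.58, and 79 were higher in WT, with a median of 0.32. With 1 library per genotype and passage these are values without a replicate check. Of the 15 copies, 9 are identical to their parent over the full length, so copy and parent values there are not independent. The share of all genes with such counts that went each way is not given here. The macrophage markers given above fell with passage, as did 2 of 3 endothelial and 1 of 3 epithelial markers. The summed endothelial level was 17.96, 12.3 and 8.01 CPM in KO and 13.7, 5.28 and 4.93 CPM in WT, and the epithelial level was 5.19, 4.31 and 1.69 CPM in KO and 5.96, 1.65 and 0.33 CPM in WT. The 13 mitochondrially encoded genes, none of them called with passage, summed to 7340, 7488 and 8301 CPM in KO and to 8193, 6163 and 5382 CPM in WT. The part of these levels in the pattern was not tested.

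The test of that difference is the interaction of genotype and passage, which with 2 residual degrees of freedom gave no call among the 42 members or among all 16603 genes by edgeR (0.0% called). The lowest adjusted p of a member was 0.548 by edgeR. At an unadjusted p under 0.05 there were 15 of the 42 members, 72 of the 84 ribosomal protein genes and 6.85% of all genes. These counts depended on single libraries. Without KO at passage 2 there were 4 of 51 members, 2 of the 84 and 2.77% of all genes. Without WT at passage 3 there were 19 of 41 members, 79 of the 84 and 12.7% of all genes. DESeq2 called 2 of the 42 members, Rps13-ps2 and Rpl27-ps3, and 16 of the 84 ribosomal protein genes, against 82 of all genes (0.494%). The median difference of slopes, KO minus WT, was −0.44 per passage over the members, −0.45 over the ribosomal protein genes and 0.02 over all genes. Leaving out 1 library moved the members' median between −0.25 without WT at passage 2 and −0.72 without WT at passage 4, and that of the ribosomal protein genes between −0.28 and −0.66. Rps13-ps2 had a difference of −0.81 ± 0.17 SE and Rpl27-ps3 of −0.65 ± 0.14 SE, and both copies are identical to their parents.

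For 60 families with a parent gene in the tables, the copies' share of the family's counts shows how much of a family was assigned to pseudogenes. Over all 60, copies held 9.06% ± 0.197 of the family counts (SD, n = 6 libraries). The share was over 50% on average in 5 families, namely Rpl28 (60.8%), Rpl27 (60.1%), Rps23 (57.0%), Rpl3 (55.8%) and Rpl36a (53.8%). It was over 5% in 13 families and under 0.1% in 26, with a median of 0.118%. The large shares were steady between libraries in some families and not in others. In Rpl28 they lay between 59.8% and 61.4%, while in Rpl31, from passage 2 to 4, they were 37.4%, 31.0% and 29.1% in KO and 38.2%, 33.5% and 31.8% in WT. In Rpl27 they were 58.4%, 54.7% and 58.5% in KO and 59.7%, 66.0% and 63.6% in WT, with every KO value below every WT value. Such separation was not particular to Rpl27. The shares in Rpl17, Rps24 and Rpl5 were also lower in every KO library than in every WT library, and those in Rps10 were higher. In TPM the Rpl27 shares overlapped, at 65.4%, 65.7% and 67.7% in KO and 65.0%, 72.8% and 71.1% in WT.

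**Figure D5:**
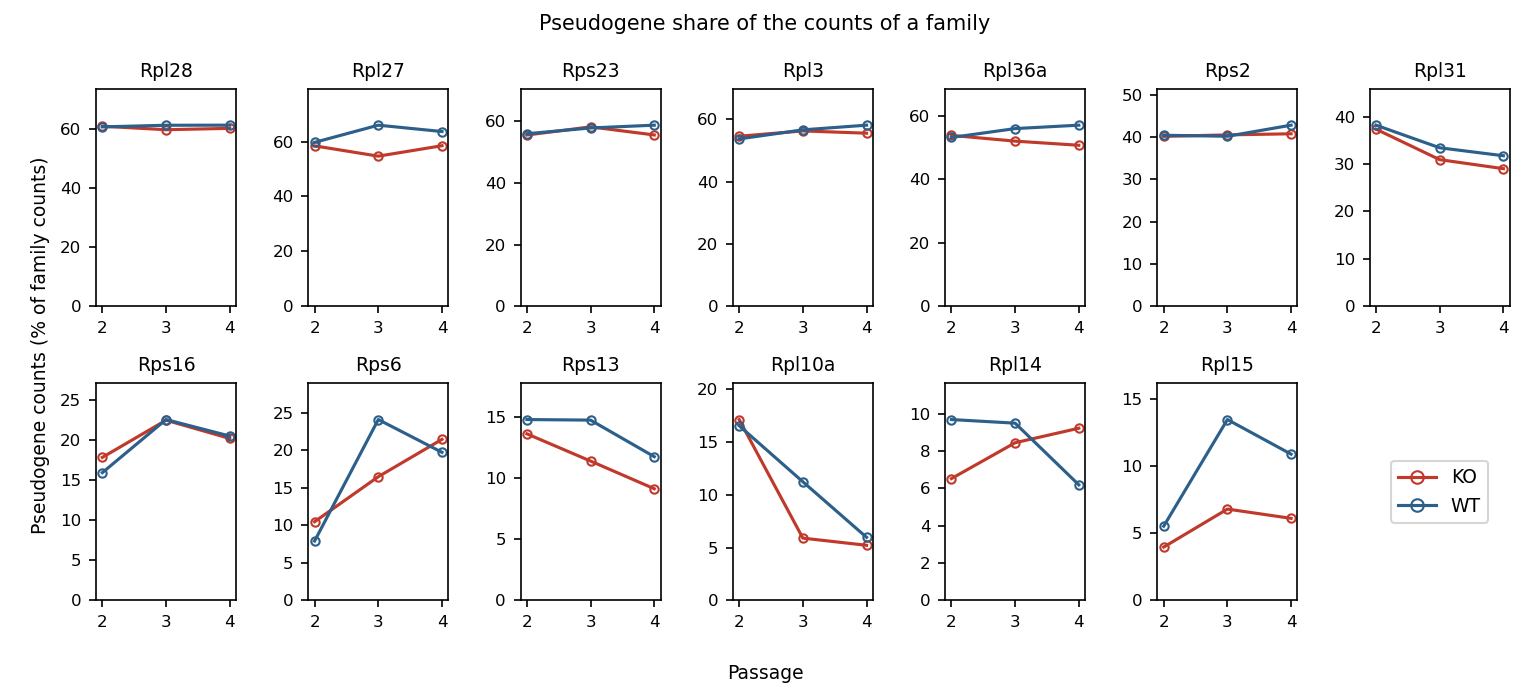
Pseudogene counts as a percentage of the counts of the family, copies plus parent gene (y axis from 0), by passage, with KO in red and WT in blue, for the 13 families with a mean over 5%. The share in Rpl28 stays between 59.8% and 61.4%, and in Rpl10a it is 17.1% and 16.6% at passage 2 and 5.23% and 5.98% at passage 4, in KO and WT.

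When the counts of every copy were added to its parent and the table was refitted, edgeR called 0 of the 84 ribosomal protein genes between genotypes, against 2.41% of all genes. At an unadjusted p under 0.05 there were 2 of the 84, against 21.3% of all genes. The median log2 change of the 84 was −0.12 in place of −0.11. This refit was chosen after the data were seen.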

How the data were processed

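The submitters' processing notes name Trimmomatic 0.39, RSEM and build GRCm38. The sources used here do not state aligner settings, annotation release or strand handling, so copies that overlap other genes have uncertain counts. The deposited tables hold expected counts, TPM and FPKM per gene, where RSEM, as run by the authors, divides ambiguous reads among genes. FPKM values were deposited by the authors and not used. A value within 0.005 of an integer was taken as whole.

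Of 55487 Ensembl genes, 55227 (99.5%) matched GENCODE M21 of GRCm38, the source of symbols, biotypes, coordinates and transcript sequences. Expected counts were rounded, TMM scaled, filtered (edgeR filterByExpr by genotype, minimum count 10) and tested with edgeR 4.0.16 quasi-likelihood (robust, 2-sided) in R 4.3.3, and Benjamini-Hochberg adjusted p under 0.05 was a call. Residual degrees of freedom were 4 with genotype as the single term, 3 for the passage slope beside genotype, and 2 for their interaction. The script was tested on simulated counts. DESeq2 1.42.0 and limma 3.58.1 on log2(TPM + 1) were alternatives. The genotype was taken from the titles; at passages 3 and 4 the tag of the library titled KO says WT instead, and a fit by the tag was an alternative. Local alignments used Biopython 1.88 (match 1, mismatch −2, gap open −5, extension −1).

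Libraries of the same passage deviated together from their genotype means (r = 0.548, 0.195 and 0.472 at passages 2, 3 and 4 over 16603 genes), so over all genes passage pairs the libraries. Over the 42 tested members r was 0.4878, 0.3415 and −0.0108, so at passage 4 the members did not deviate together. No 2 libraries of a genotype agreed within sampling noise (chi-square per degree of freedom of 45.6 or more).

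Members and lists were chosen with earlier results of these data known. Named are copies called in a fit or seen in 1 genotype only, the 10 with the highest mean TPM, the 10 with the largest genotype change, the 5 least shared with 10 or more counts in every library, and their parents; others were chosen after their values were seen. A count of 0 allows 3 counts of the total, and intervals and floors cover counting error only.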

Additional observations from a re-analysis of the deposited data

How the results depend on the processing

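Calls of 1 member between genotypes held with DESeq2 size factors, without the filter and with a minimum count of 30. They also held with limma on log2(TPM + 1), with effective lengths as offsets and without any 1 library (range 1 to 1). That was 0.521% of 192 members without the filter (all genes 2.68%) and 4.55% of 22 at a minimum count of 30 (all genes 2.8%). With DESeq2 size factors, limma and offsets it was 2.38% of 42 (all genes 2.39%, 2.33% and 2.08%). Without 1 library it was 1.96% to 2.44% of the members. The share of all genes then ran from 0.228% without KO at passage 3 to 4.85% without WT at passage 4. The block for passage gave 2 (Rpl15-ps3 added), as did DESeq2 (Rpl15-ps3 −3.43, adjusted p = 0.0124), against 11.1% of all genes with the block and 10% with DESeq2, and the block changed no other call of a named member. The genotype tag, which leaves 1 KO library, gave 0 of all 18316 genes, so its lost call of Rpl15-ps2 (1.38, adjusted p = 0.903) says nothing about that copy. Members sharing under 25% of words gave 0 of the 2 tested. Passage calls were 6 of 192 members without the filter (all genes 7.74%), 2 with DESeq2 (10.3%), 4 with limma (7.4%) and 0 to 2 without 1 library (0 without KO or WT at passage 4, 2 without WT at passage 2, and 1 that rose without WT at passage 3). Of all genes, 1.64% were called without KO at passage 4 and 2.12% without WT at passage 4. Without WT at passage 2 it was 1.7%, and without WT at passage 3 it was 7.77%. Interaction calls were 9 of 192 members without the filter (all genes 0.915%, ribosomal protein genes 35 of 85), 2 with DESeq2 (0.494%, 16 of 84) and 0 to 0 without 1 library, and with limma the median over all genes moved to 0.15, against −0.20 for the members. The members' median genotype change was 0.005 with limma and 0.20 with the tag. Copies seen in 1 genotype only were 4 at a sum of 5 or more, 0 at 30 or more, 2 with a sum under 3 in the other genotype, 0 among members sharing under 25% and 1 to 2 without 1 library (2 without KO at passage 3 or WT at passage 4). The share of all genes that meet these changed rules is not given here, so no excess can be read from these counts. The pooled pseudogene share was 10.6% with TPM. The cause of these shifts was not tested, except where fewer or more genes or samples were tested.

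Over the 25 tested named members, 323 values kept direction and call and 24 turned, all of them uncalled. With the genotype tag these were Rpl10a-ps1 (1.15), Rpl28-ps1 (0.16), Rps23-ps1 (0.25), Rpl31-ps8 (0.46), Rpl3-ps1 (0.14), Rpl36a-ps2 (0.20), Rpl27-ps3 (0.41), Rps16-ps2 (0.13), Rpl10-ps6 (0.65), Rpl23a-ps3 (0.68), Rpl14-ps1 (0.043) and Rpsa-ps10 (0.16). With limma they were Rpl3-ps1 (0.048), Rps6-ps4 (0.092) and Rpl14-ps1 (0.028). Without 1 library the changes ran from −1.21 to 0.13 for Rpl10a-ps1, −0.044 to 0.24 for Rps2-ps10, −0.15 to 0.014 for Rpl3-ps1, −0.56 to 0.15 for Rps6-ps4, −0.25 to 0.026 for Rpl14-ps1 and −0.25 to 0.39 for Rps26-ps1. Depth limits the copies with few counts.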
